A study of Homo sapiens with 2 samples.

Results

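The epithelial chemokines examined here are 10 genes, CXCL1, CXCL2, CXCL3, CXCL5, CXCL6, CXCL8, CXCL10, CXCL11, CXCL14 and CCL20. They were taken as the non-control array probes whose gene name is one of these symbols, with IL8 counted as CXCL8, which gave 13 of the 58201 probes and 10 of the 43317 gene names on the array. The study compared Ca9-22, a human oral squamous cell carcinoma (OSCC) line, after infection with a lentivirus carrying DLEU1, a long non-coding RNA, against the same line after infection with a control vector. Per the study's methods, the DLEU1 cDNA had been amplified from another OSCC line and cloned into a lentiviral vector, and the control was the empty vector. Both groups were put under blasticidin at 6 mg/ml for 2 weeks, so the infected cells of each vector were measured as a selected population. RNA of each population was hybridised to 1 one-colour Agilent array, and with 1 array per vector there was no replicate, no test and no p-value. The vector, the culture and the array therefore cannot be told apart, and a difference below is the difference between these 2 arrays.

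Chemokines are small secreted proteins that draw leukocytes along a gradient by binding G protein-coupled receptors. The ELR CXC chemokines (CXCL1, CXCL2, CXCL3, CXCL5, CXCL6 and CXCL8), named for a glutamate-leucine-arginine stretch before the first cysteine, act through CXCR2, and CXCL6 and CXCL8 also through CXCR1, to attract neutrophils. CXCL10 and CXCL11 are induced by interferons and attract activated T cells through CXCR3, CXCL14 is made by resting epithelium, and CCL20 attracts cells that carry CCR6. Epithelial cells switch on most of these genes after interleukin-1, TNF, interleukin-17 or interferon-gamma, with NF-kappaB, AP-1 and C/EBP factors acting at short promoters, and the AU-rich tails of many of the messages set how long they last.

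The promoters are shown first because shared letters upstream of the start are what the members have in common outside the array values. All 10 members had an entry in the RefSeq promoter table (GRCh38.p14), of which the 250 bases before the annotated start were searched on both strands. The letters were chosen with these sequences in view. A loose form of the NF-kappaB element, GGGA followed by any 4 bases and CC, was found upstream of 9 of the 10 members, CXCL14 being the exception, and in 22.6% of 35116 promoters. GGAATTTCC, a strict form that overlaps a loose match in every member that held it except CXCL8, was found in 8 of 10, not in CXCL14 or CCL20, and in 0.413% of the promoters. In the windows below each sequence is written 5′ to 3′ on the strand of its gene, with the matched letters in capitals.
CXCL1, chr4:73869299-73869339, plus strand: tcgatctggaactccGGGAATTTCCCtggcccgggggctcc
CXCL2, chr4:74099248-74099288, minus strand: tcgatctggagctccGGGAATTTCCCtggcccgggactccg
CXCL3, chr4:74038743-74038783, minus strand: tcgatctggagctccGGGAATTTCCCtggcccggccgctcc
CXCL5, chr4:73998743-73998783, minus strand: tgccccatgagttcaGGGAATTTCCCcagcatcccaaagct
CXCL6, chr4:73836573-73836613, plus strand: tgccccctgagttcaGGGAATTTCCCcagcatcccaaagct
CXCL8, chr4:73740463-73740501, plus strand: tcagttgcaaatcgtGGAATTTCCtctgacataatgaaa
CXCL10, chr4:76023650-76023689, minus strand: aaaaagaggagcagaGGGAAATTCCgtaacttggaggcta
CXCL11, chr4:76036122-76036161, minus strand: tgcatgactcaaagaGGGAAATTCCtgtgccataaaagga
CCL20, chr2:227813747-227813786, plus strand: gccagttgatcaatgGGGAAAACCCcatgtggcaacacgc

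CXCL1, CXCL2, CXCL3, CXCL5 and CXCL6 carried the same 11 letters, which began between positions -91 and -78 from the start. The 250-base promoters of CXCL5 and CXCL6 were 85.3% identical and those of CXCL1 and CXCL3 81.4%, so their matches are not independent. CXCL10 and CXCL11 held the strict letters on the opposite strand. CXCL10 held a further loose match at -122, and CCL20 held 2 further loose matches, at -207 and -21. The loose match of CXCL8, at -117, lay apart from its strict letters. CXCL10 alone held an interferon-stimulated response element, searched as GAAA, any 2 bases and GAAA, and present in 3.02% of promoters.
CXCL10, chr4:76023694-76023733, minus strand: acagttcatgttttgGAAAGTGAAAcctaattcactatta
The AP-1 letters TGANTCA, present in 6.57% of promoters, lay upstream of CXCL8, CXCL11 and CXCL14, and the TATA letters TATAAA, present in 10.72%, upstream of CXCL8, CXCL11 and CCL20. CXCL14 stood apart from the other members in holding the AP-1 letters and neither form of the NF-kappaB letters.
CXCL14, chr5:135579062-135579098, minus strand: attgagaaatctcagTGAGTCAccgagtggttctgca
A match is a description of the letters and does not show that a factor binds there.

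**Figure D1:**
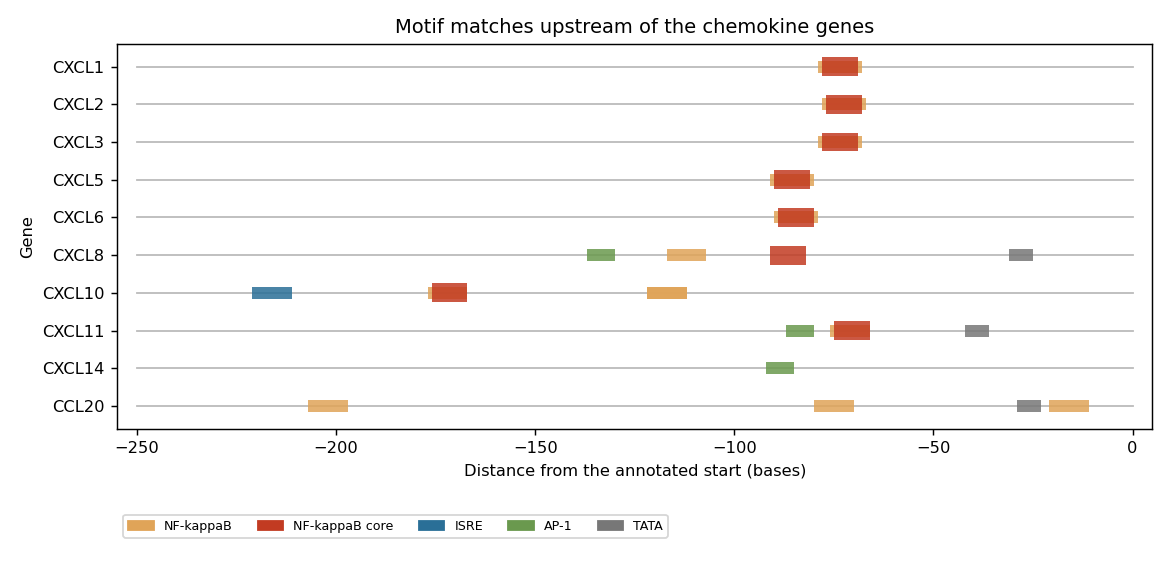
Motif matches in the 250 bases upstream of the 10 chemokine genes, by distance in bases from the annotated start (x axis) for each gene (y axis). Boxes mark the loose NF-kappaB letters, the strict NF-kappaB letters (core), the interferon-stimulated response element (ISRE), AP-1 and TATA. The strict letters lie between -91 and -67 in 7 genes, and further upstream, from -176, in CXCL10.

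On the arrays, none of the 8 chemokines detected on at least 1 array was higher with the DLEU1 vector. For 5 of these, detected with the control vector only, the detection rule left no way to count as higher. CXCL2 was 4.53-fold lower, CXCL8 at least 7.85-fold lower, CXCL10 at least 2.62-fold lower and CXCL11 at least 2.02-fold lower. CXCL3 and CXCL5 were lower by less than 2-fold. CXCL1 and CCL20 were near the lowest detected signal with the control vector and under it with the DLEU1 vector. CXCL6 and CXCL14 were not detected on either array. In a population of cells, fewer cells making a chemokine and less of its RNA per cell cannot be told apart. In these values a signal is Agilent's processed intensity, a level is its log2 after subtracting the array's 75th percentile, and a difference is the DLEU1 vector level minus the control vector level. A probe was called detected where the scanner software marked it well above background. A gene detected on only 1 array has a bound in place of a difference, set against the lowest signal of any detected probe on the other array. That signal is not a strict detection limit, since some undetected probes read above it. An error after ± is that of the scanner software. After a signal it covers 1 array, and after a difference it combines the errors of both arrays. It does not cover differences between cultures.

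Of the 10 genes, 3 were detected on both arrays, against 46.7% of all gene names, and 2 on neither, against 48.0%. The remaining 5 were detected with the control vector and not with the DLEU1 vector, out of 8 detected with the control vector. Over all gene names detected with the control vector, 4.97% were lost in this way, and over probes 5.24%. These shares cover signals of every brightness, and no share was taken for genes as dim as CXCL1, CCL20, CXCL10 and CXCL11. No member was detected with the DLEU1 vector alone, where 5.76% of the gene names detected with that vector were. The 5 genes passed detection through the control array alone, so that their lower level on the other array follows in part from the detection rule. Each gene had only 1 or 2 probes.

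Among the neutrophil-attracting ELR chemokines, CXCL2 had the largest difference measured on both arrays. Its brighter probe, A_23_P315364 (hg19 chr4:74962985-74963044), read 271 ± 27.4 on the control array and 58.3 ± 6.87 on the DLEU1 array. The difference was -2.18 ± 0.22 on the log2 scale. The DLEU1 array was low for both CXCL2 probes, which lie at separate positions of the gene. The second, A_24_P257416 (hg19 chr4:74964342-74964401), read 106 ± 11.003 and 30.03 ± 4.22, a difference of -1.78 ± 0.25, 3.44-fold lower.
This second probe is listed in the array files against the CXCL3 transcript as well as that of CXCL2, and it overlaps a CXCL1 probe. The 2 sequences are printed to show how far these family members can be separated by hybridisation, with the bases they share over the overlap in capitals.
CXCL1 probe A_33_P3330264: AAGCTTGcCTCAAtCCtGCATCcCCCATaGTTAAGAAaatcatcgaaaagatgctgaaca
CXCL2 probe A_24_P257416: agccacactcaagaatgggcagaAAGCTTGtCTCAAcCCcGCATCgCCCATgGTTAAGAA
Over the overlap, 32 of 37 bases were identical, and the value of the second CXCL2 probe is therefore uncertain as to the gene it reads. Hybridisation of one transcript to the other probe was not tested.

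CXCL8, also known as interleukin-8 and the best-known neutrophil attractant of the family, had the largest bound. Its probe A_32_P87013 (hg19 chr4:74609265-74609324) read 115 ± 12.0 on the control array and 7.57 ± 3.55 on the DLEU1 array. The second value was above background by the software's weaker criterion, positive and significant, and not well above background. As measured, the difference was -3.89 ± 0.69, and against the lowest detected signal it was -2.97. The signal of the control array was thus far over that array's lowest detected signal, 14.2. That of the DLEU1 array was under its own lowest detected signal, 14.3.

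CXCL3 and CXCL5 were detected on both arrays with smaller differences. CXCL3, on probe A_24_P183150 (hg19 chr4:74902702-74902761), read 65.4 ± 7.25 and then 41.5 ± 5.23, a difference of -0.62 ± 0.24, 1.53-fold lower. CXCL5, on probe A_24_P277367 (hg19 chr4:74861898-74861957), read 647 ± 64.7 and then 471 ± 47.2, a difference of -0.42 ± 0.20, 1.34-fold lower. The CXCL5 difference was within the SD of 0.47 between probes of the same gene over 4674 genes, and the CXCL3 difference was above it. With the normexp background model the CXCL3 difference was smaller, at -0.27. The SD between probes was not taken under that model.
CXCL1 was near the lowest detected signal. Its probe A_33_P3330264 (hg19 chr4:74735646-74735705) read 16.4 ± 3.28 on the control array and 6.74 ± 2.91 on the DLEU1 array. Against the lowest detected signal this allows only the bound of at least 1.12-fold lower, a margin within the software's error. The other CXCL1 probe, A_23_P7144 (hg19 chr4:74736850-74736909), read 3.55 and 3.65 and was detected on neither array. CXCL6, on A_23_P155755 (hg19 chr4:74703368-74703427), read 2.87 and 2.85 and was detected on neither. These values carry no order.

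**Figure D2:**
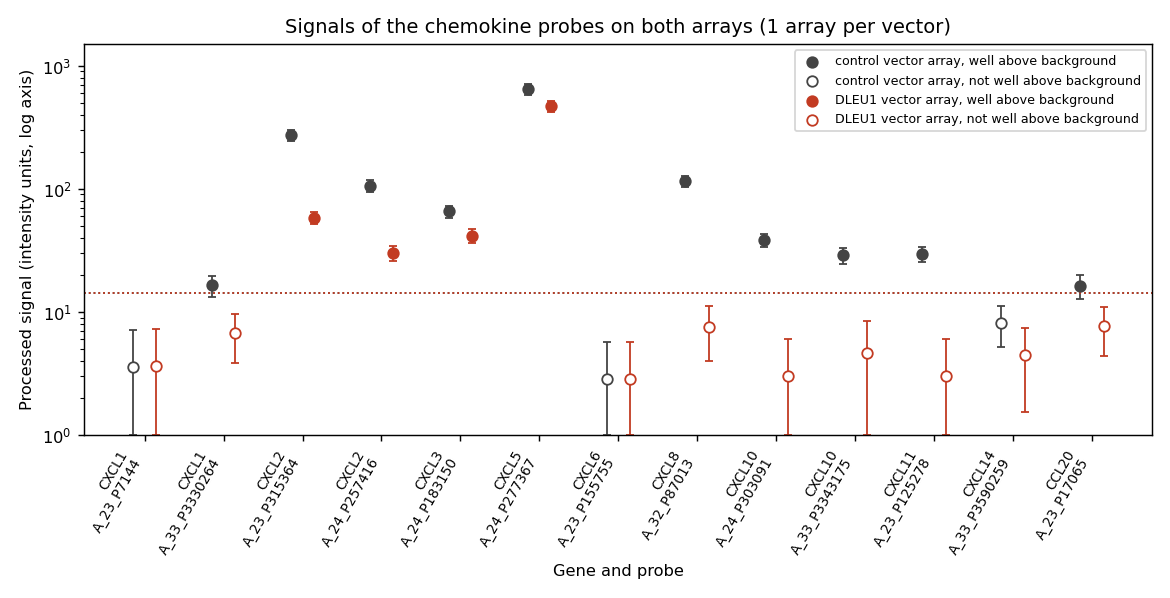
Processed signal (y axis, intensity units, log axis) of the 13 chemokine probes (x axis) on the control vector array (grey) and the DLEU1 vector array (red). Filled points were well above background, open points were not, bars are the scanner software's error (cut off at 1), and dotted lines mark the lowest detected signal of each array, 14.2 and 14.3. CXCL1 (A_33_P3330264), CXCL8, CXCL10, CXCL11 and CCL20 pass from above to below these lines, and the CXCL2, CXCL3 and CXCL5 probes stay above them.

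The CXCR3 ligands CXCL10 and CXCL11, which interferon-gamma induces, were both detected with the control vector alone. CXCL10 probe A_24_P303091 (hg19 chr4:76942934-76942993) read 38.5 ± 4.87 and then 2.99 ± 3.01. Its second probe, A_33_P3343175 (hg19 chr4:76943520-76943579), read 28.9 ± 4.23 and then 4.62 ± 3.77, with a bound of -0.98. CXCL11 probe A_23_P125278 (hg19 chr4:76955615-76955674) read 29.6 ± 4.24 and then 3.04 ± 3.05, with a bound of -1.01. All 3 probes were low on the DLEU1 array, where the error was about as large as the signal for the first CXCL10 probe and for CXCL11. The bound of CXCL11 lies at the 2-fold line and was -0.90 when the arrays were scaled by the 75th percentile of detected probes. With the background model normexp, used with an offset of 50, the bounds were -0.42 for CXCL10, -0.31 for CXCL11 and -1.16 for CXCL8, and the CXCL2 difference was -1.41. With only signals of at least 100 counted as detected, CXCL8 had a bound of -0.17 and CXCL2 a bound of -1.40.

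CXCL14, which healthy epithelium makes without stimulation, was not detected on either array. Its probe A_33_P3590259 (hg19 chr5:134907494-134907553) read 8.19 ± 3.01 on the control array and 4.45 ± 2.93 on the DLEU1 array. CCL20, the ligand of CCR6, read 16.4 ± 3.54 and then 7.65 ± 3.25 on probe A_23_P17065, which spans hg19 chr2:228681100-228681836. CCL20 was thus detected with the control vector only, by a small margin. Against the lowest detected signal it was at least 1.12-fold lower with the DLEU1 vector, a margin within the software's error.

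By the 2-fold criterion, 1 of the 3 chemokines detected on both arrays, CXCL2, was lower, where 9.78% of the 20246 gene names detected on both were. None was higher by 2-fold, against 9.18%. Over all gene names this split of lower and higher was 24.0% and 4.57% with the spike-in probes set equal, and 7.78% and 10.9% with scaling by the 75th percentile of detected probes. All 3 were lower by any amount, against 54.2%. With bounds counted, 4 of 8 were at least 2-fold lower, against 10.0% of gene names detected on at least 1 array, and 0 of 8 higher, against 10.2%. The 5 genes with bounds passed detection on the control array alone, so they could not have counted as higher. Of the 4 probes detected on both arrays, 2 were at least 2-fold lower, against 9.78% of all such probes, both for CXCL2, and none was higher, against 8.98%. The median difference of the 3 genes detected on both arrays was -0.62, beside -0.07 over all gene names detected on both. With the 5 genes detected on 1 array taken at their bound, it was -0.81. These counts are small and their members lie partly in 1 cluster on chromosome 4, so nothing particular to the chemokines is read from them.

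**Figure D3:**
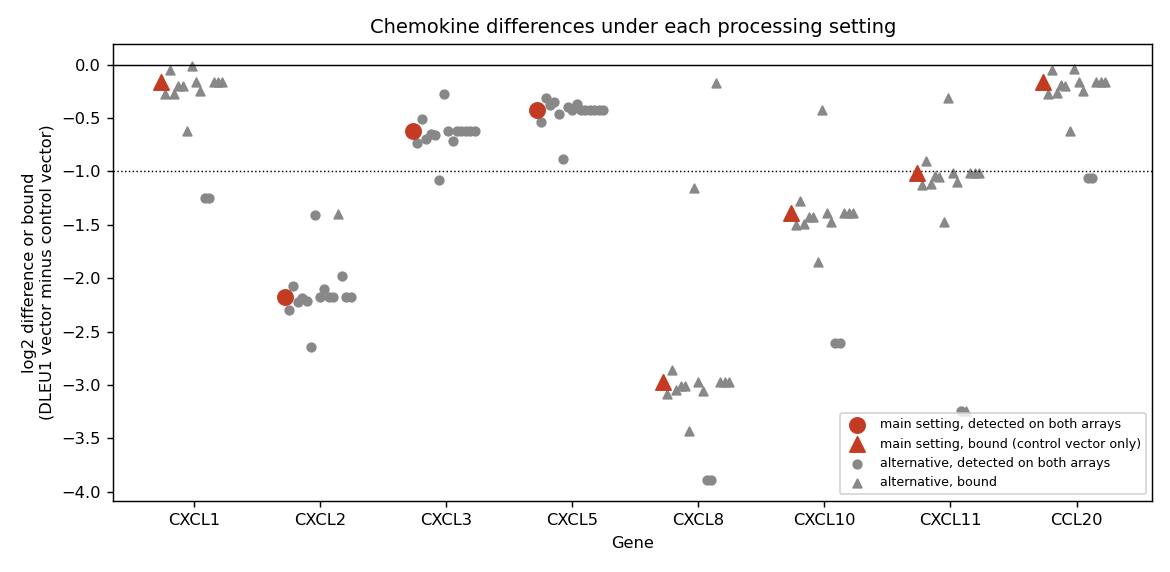
log2 difference or bound, DLEU1 vector minus control vector (y axis), of the 8 chemokines detected on at least 1 array (x axis). Red points are the values given above, grey points the same under each processing alternative, circles are measured differences, triangles are bounds, and the dotted line marks 2-fold lower. No point lies above 0, which for the triangles follows from the definition of a bound.

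The other chemokine ligands and the receptors did not share one direction. Of 34 further ligands, 32 had a probe and 23 of these were detected on neither array, among them CXCL9, the third interferon-induced CXCR3 ligand. The 8 detected on both arrays had 4 lower and 4 higher values, a median of -0.08 and no 2-fold difference. They ran from -0.72 for CCL15 to 0.51 for CXCL16, a membrane-bound ligand of CXCR6. CCL27, a skin chemokine that attracts T cells, was detected with the control vector only, with a bound of -1.41. The sign of this median was not stable, being 0.03 when the arrays were scaled by the 75th percentile of detected probes. Of 23 receptors, 9 were detected on both arrays, with a median of -0.39. ACKR3, a scavenging receptor for CXCL11 and CXCL12, was higher by 1.43, and CCRL2, an atypical chemerin-binding receptor, was lower, at -1.37. Among the receptors for the members themselves, CXCR2 was at -0.44, CXCR3 at -0.65 and CCR6 at -0.39, and CXCR1 was not detected.

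The cytokines, receptors and adaptors that induce these chemokines went both ways. Of 29 genes, 20 were detected on both arrays, 10 lower and 10 higher, with a median of 0.04 that became -0.08 under scaling by the array median. IL1RN, the natural antagonist of the interleukin-1 receptor, was 3.13 higher, followed by TLR5, the flagellin receptor, at 1.64, IL1RAP, the shared subunit of interleukin-1 family receptors, at 1.19, and IL17RE at 1.05. Interleukin-6 (IL6) was at -1.71, the kinase IRAK1 at -1.503, the interleukin-6 family receptor subunit IL6ST at -1.18 and interleukin-1 alpha (IL1A) at -1.04. LTB, a TNF-family ligand, was detected with the control vector only, with a bound of -1.45, and TNF was detected on neither array. The antagonist IL1RN was thus higher, and the agonists IL1A and IL1B, the latter at -0.53, were lower. The receptor on which they act, IL1R1, was detected on neither array. A part of these values in the chemokine differences was not tested.

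All 17 NF-kappaB subunits and regulators were detected on both arrays, with a median of -0.66. Values were lower for 12 and higher for 5 of the 17, against 54.2% and 45.8% of gene names. Of these, 4 were at least 2-fold lower, against 9.78% of gene names. These were TNFAIP3, which terminates the signal, at -2.12, the survival gene BIRC3 at -1.61, and the inhibitors NFKBIE at -1.24 and NFKBIB at -1.03. With the spike-in probes set equal, 9 were at least 2-fold lower, against 24.0% of gene names under that scaling. The subunit REL was 2.22 higher, while RELA was at 0.00 and NFKB1 at -0.81. Among AP-1 and C/EBP factors, 10 of 12 were higher, against 45.8% of gene names, with a median of 0.58. FOSL1 was the exception in size at -4.05, and JUNB at 2.21, ATF3 at 1.13 and FOSL2 at 1.12 were at least 2-fold higher, against 9.18%. Under the spike-in scaling 8 of the 12 were higher, against 22.9% of gene names. Only 1 was at least 2-fold higher there, against 4.57%.

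The interferon-gamma genes, which include the receptor chains IFNGR1 and IFNGR2 and the kinases JAK1 and JAK2 besides response genes, went both ways. Of 18 genes, 16 were detected on both arrays, 11 higher and 5 lower, against 45.8% and 54.2% of gene names, with a median of 0.16. With the spike-in probes set equal, 10 were lower and 6 higher, against 77.1% and 22.9% of gene names, and the median was -0.31. GBP2, a guanylate-binding protein, was 2.29 higher, STAT2 1.94 and IRF1 1.03, and SOCS1, a feedback inhibitor of JAK kinases, was the lowest at -0.93. The 12 regulators of AU-rich messages were split, 7 lower and 5 higher with a median of -0.13, and this sign was not kept under quantile normalisation (0.01) or loess (0.02). ZFP36, which promotes decay of such messages, was highest at 0.96, and the RNA-binding proteins ELAVL1 and HNRNPD were at least 2-fold lower, each at -1.05, which is 2 of 12 against 9.78% of gene names. With scaling by the 75th percentile of detected probes, 0 were at least 2-fold lower and 3 higher, against 7.78% and 10.9% of gene names. Of the proteases that cleave chemokines and the surface molecules that carry them, 10 of 14 were detected on both arrays. All 10 were at 0 or above, with a median of 0.57, where 45.8% of gene names were higher by any amount. Without scaling or with quantile normalisation 1 was lower, and after scaling by the median 2 were. With the spike-in probes set equal 3 were lower, against 77.1% of gene names. The 10 values ran from 0.00 for the sheddase ADAM17 to 2.29 for MMP12, with MMP1 at 1.29. ANPEP, an aminopeptidase, was detected with the DLEU1 vector only, with a bound of 0.50.

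**Figure D4:**
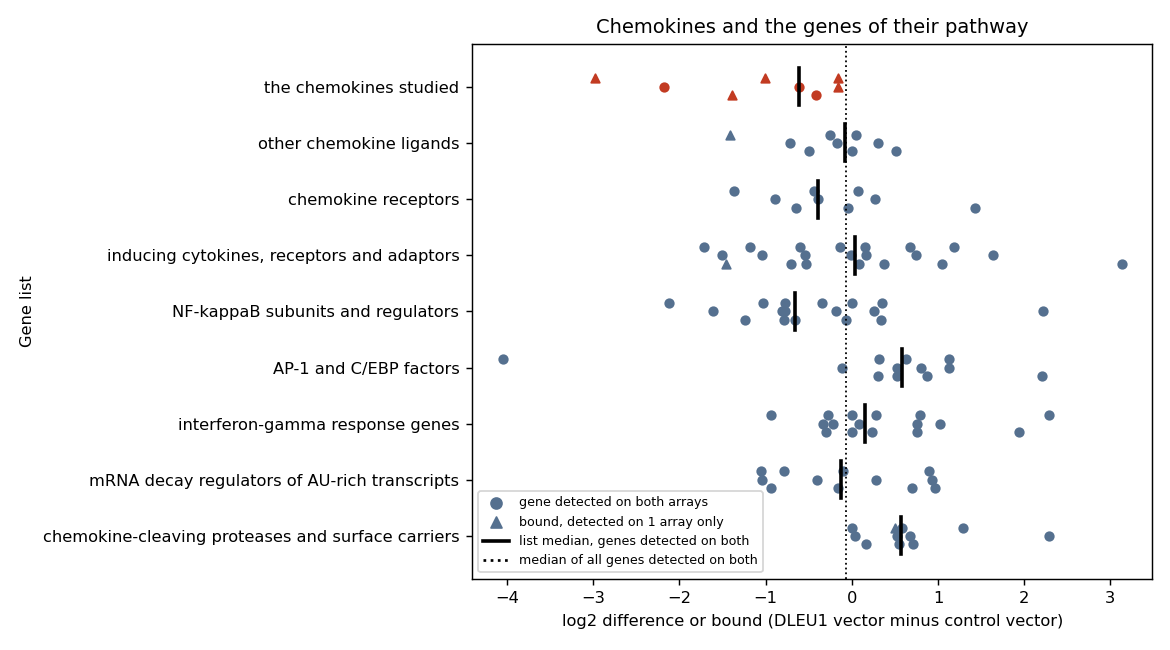
log2 difference or bound, DLEU1 vector minus control vector (x axis), for the chemokines studied (red) and 8 lists of pathway genes (y axis). Circles are genes detected on both arrays, triangles bounds, thick black lines list medians over genes detected on both, and the dotted line the median of -0.07 over all gene names. The chemokines have a median of -0.62 and NF-kappaB genes -0.66, while AP-1 and C/EBP factors sit at 0.58.

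Of the 10 chemokine genes, 8 lie on chromosome 4, in an ELR cluster and beside each other as CXCL10 and CXCL11. Of the 12 genes placed beside the ELR cluster, 6 were detected on both arrays, with a median of -0.25. EREG, which encodes the growth factor epiregulin, was at -3.22 and AREG, for amphiregulin, at -0.77, while RASSF6 and BTC, for betacellulin, were both at 0.48. The chemokines PF4, PF4V1 and PPBP, which lie within the cluster, were not detected. The 9 genes around CXCL10 and CXCL11 had 6 detected, from -0.98 for NUP54, a nuclear pore protein, to 0.21 for SCARB2, and a median of -0.22. The detected neighbours had both lower and higher values, and a part of chromosomal position in the chemokine differences was not tested.

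**Figure D5:**
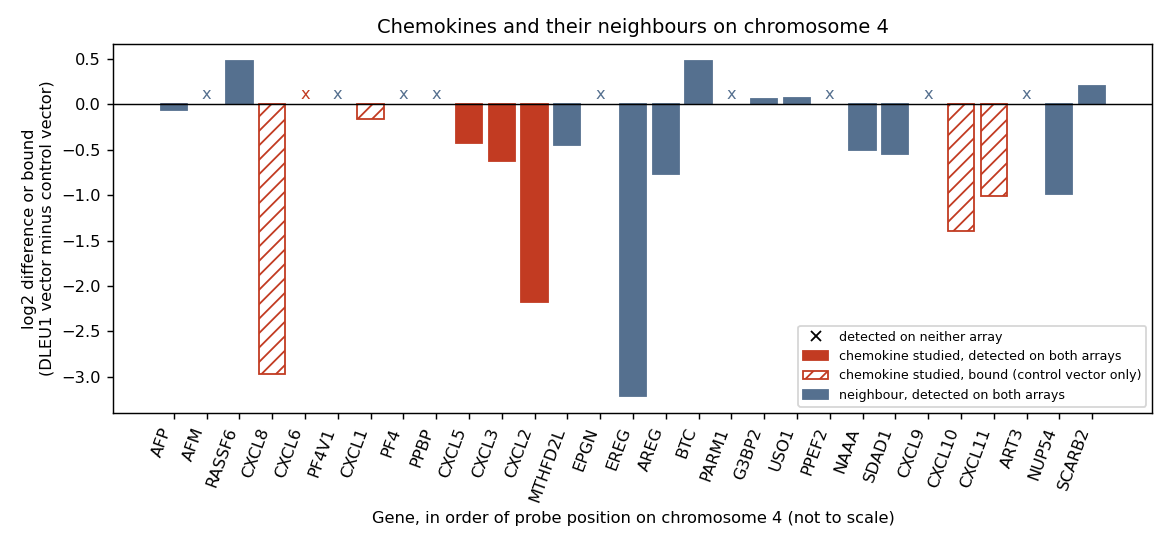
log2 difference or bound, DLEU1 vector minus control vector (y axis), of chemokines (red) and neighbouring genes (blue) in order along chromosome 4, not to scale. Solid bars are measured differences, hatched bars bounds, and crosses mark genes detected on neither array. Bars at or beyond 2-fold lower are those of EREG, CXCL8, CXCL2, CXCL10 and CXCL11, with NUP54 just short of it at -0.98, and RASSF6 and BTC stand at 0.48.

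The arrays held 60901 non-control spots each, with 47.6% of probes detected on the control array and 48.1% on the DLEU1 array. The probe A_23_P151337 of DLEU1 (hg19 chr13:50679272-50679331) read 2178 on the control array and 14156 on the DLEU1 array, 6.67-fold higher, while its other 2 probes were 0.85 and 0.54 higher on the log2 scale. Repeat spots of a probe gave an SD of the log2 difference of 0.08 over 282 probes, and 0.31 over 5 probes with a mean signal under 100, the range of most chemokine probes. For 450 probes, more than 30% of the 50 nearest bright probes were at least 2-fold lower with the DLEU1 vector. No chemokine probe was among these 450. Which array this came from was not tested. The 100 nearest probes around each chemokine probe had a median difference from -0.15 to 0.10.

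All 10 squamous epithelial markers, among them KRT5, KRT14 and TP63, were detected on both arrays, with a summed level, on a linear scale relative to the 75th percentile, of 1023 on the control array and 1682 on the DLEU1 array. Of the 10, 6 were at least 2-fold higher, against 9.18% of gene names, and the median difference was 1.36. KRT17 was at 3.09, KRT14 at 2.85, DSG3 at 2.51 and KRT5 at 2.10, while EPCAM was at -0.78. Of 9 leukocyte markers with a probe, 6 were detected on each array, with a summed level of 1.97 and 1.63. They ran from -1.60 for CD14 and -1.12 for SPI1 to 0.30 for CSF3R and 0.45 for PTPRC, the marker of all leukocytes. The T cell marker CD3E was detected on neither. Fibroblast markers summed to 1.57 and 22.5 over 8 genes, with COL1A1 at 3.99, PDGFRB at -0.33, LUM detected with the DLEU1 vector only, and COL1A2 and COL3A1 not detected. Endothelial markers summed to 0.489 and 2.79 over 6 genes, with VWF at 3.70, CDH5 at -0.59 and PECAM1 not detected. The part of these marker differences in the chemokine values was not tested.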

How the data were processed

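Cy3-labelled total RNA of each population was read on 1 one-colour Agilent array. Per the labels, the authors extracted intensities with Agilent Feature Extraction 10.7, and the deposited scanner files hold processed signal intensity, with spatial and multiplicative detrending already applied by that software; their header gives version 10.7.3.1 and build hg19. From these, outlier and control spots were left out, spots of a probe averaged, log2 taken and the 75th percentile of each array's non-control probes subtracted. Probes were called detected where well above background at most spots. A gene took its brightest probe detected on both arrays, otherwise its brightest on 1. All 10 members, DLEU1 and, in each list, the highest and lowest gene, genes past 2-fold and genes on 1 array were to be named. Receptors of the members, IL1B, NFKB1, RELA, AREG, BTC and undetected genes were added as context after their values were seen. Members and lists were chosen with earlier results of these data known. No column of another sample was present. The scaling and the 2-fold calls were tested on simulated data with known changes, placed only in probes with a signal above 100. No simulated probe was detected on 1 array only. The bounds and changes in dim probes were therefore not tested in this way. Python 3.11.15, numpy 2.4.6, pandas 2.3.3, R 4.3.3 and limma 3.58.1 were used. There were 17 processing alternatives, besides counting bounds as values, and arrays limit precision by their number.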

Additional observations from a re-analysis of the deposited data

How the results depend on the processing

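No test existed, so settings were compared by value. No paired analysis was possible because each group had 1 array. Of 115 values of single chemokines under alternatives, 60 moved by less than the SD between spots, 55 moved by more and 0 reversed. A bound was capped at 0 by its definition, so a value given as a bound could not reverse. Some alternatives changed no list median by more than the SD between spots and no count of chemokines by more than 1.5 times. These were no scaling, the authors' value table (within 0.497% of the signals used) and averaging the probes of a gene. Leaving out saturated spots (0 found) did the same. So did leaving out the 450 probes with many lower neighbours, chosen after seeing the data. Part of the 60 values could not have moved. No spot was saturated, no chemokine probe was among those 450, and averaging could change only CXCL2. The median of all probes moved from -0.07 to -0.19 when scaled by the median, 0.04 by the 75th percentile of detected probes and -0.53 with the spike-in probes set equal. The values that moved follow, as medians on the log2 scale. The cause was not tested.

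With scaling by the median, the medians were -0.73 for the chemokines, -0.20 for other ligands, -0.50 for receptors, -0.078 for inducers (sign reversed), -0.77 for NF-kappaB, 0.47 for AP-1 and C/EBP, 0.043 for interferon-gamma genes, -0.24 for mRNA decay, 0.45 for proteases and carriers, -0.36 beside the ELR cluster and -0.33 beside CXCL10 and CXCL11. With the 75th percentile of detected probes they were, in the same order, -0.51, 0.029 (reversed), -0.28, 0.15, -0.55, 0.69, 0.27, -0.017, 0.68, -0.14 and -0.11. With spike-in probes set equal they were -1.08, -0.54, -0.85, -0.43 (reversed), -1.12, 0.12, -0.31 (reversed), -0.59, 0.10, -0.71 and -0.68. Under that scaling 2 of the 3 chemokines detected on both arrays were at least 2-fold lower, against 24.0% of gene names. Quantile normalisation gave -0.70 for the chemokines, -0.45 for NF-kappaB, 0.74 for AP-1 and C/EBP, 0.33 for interferon-gamma genes, 0.0088 (reversed) for decay, 0.77 for proteases, -0.35 beside the ELR cluster and -0.10 beside CXCL10 and CXCL11. Loess gave -0.44 for NF-kappaB, 0.76 for AP-1 and C/EBP, 0.36 for interferon-gamma genes, 0.025 (reversed) for decay, 0.80 for proteases and -0.084 beside CXCL10 and CXCL11.

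With normexp the medians were -0.39 for the chemokines, -0.11 for receptors, -0.37 for NF-kappaB, -0.0021 beside the ELR cluster and -0.071 beside CXCL10 and CXCL11, with 2 chemokines at least 2-fold lower with bounds and 1 probe. With the local median subtracted, they were -0.71 for the chemokines, 0.14 for inducers, -0.58 for NF-kappaB, 0.70 for AP-1 and C/EBP, -0.046 beside the ELR cluster and -0.10 beside CXCL10 and CXCL11. With no filter on dim probes, 10 chemokines counted on both arrays and 0 on the control array only, 6 genes and 8 probes were at least 2-fold lower, and the chemokine median was -1.15. Reversed medians were 0.030 for other ligands, 0.050 for receptors, -0.14 for inducers, 0.031 beside the ELR cluster and 0.036 beside CXCL10 and CXCL11. With the weaker criterion, positive and significant, 8 were on both arrays and 1 on the control array only, 5 genes and 6 probes were lower, the chemokine median was -1.15, other ligands 0.0032 (reversed), inducers -0.14 (reversed) and beside the ELR cluster -0.056. With a signal of at least 100, 1 chemokine counted on both arrays and 2 on the control array only, 0 genes and 0 probes were at least 2-fold lower, 1 with bounds, and the medians were -0.42 for the chemokines, 0.049 (reversed) for other ligands, -0.50 for NF-kappaB, 0.72 for AP-1 and C/EBP, 0.25 for interferon-gamma genes, -0.14 beside the ELR cluster and 0.065 (reversed) beside CXCL10 and CXCL11. At 1.5-fold, 2 chemokines were lower, and at 3-fold 2 were lower with bounds. For normexp, the settings on dim probes and these 2 thresholds, no share over all gene names was taken. The counts of lower chemokines under them therefore stand without a background. With members on 1 array taken at their bound, chosen after seeing the data, the chemokine median was -0.81. Dim probes limit the depth of these statements, since 9 of the 13 chemokine probes were not well above background on at least 1 array.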

Other observations

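A long non-coding transcript named lnc-CXCL2-1 on the array, which the gene name rule does not include and which was picked after its values were seen, was also lower. Its probe A_22_P00004795 (hg19 chr4:75144043-75144102) read 135 on the control array and 37.9 on the DLEU1 array, 3.48-fold lower, and was detected on both arrays.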
